A study of Mus musculus with 6 samples.

Results

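RNA levels in 2 mouse muscle stem cell libraries labelled mdx/Ripk3mKO were compared with those in 2 libraries labelled wild type (wt), gene by gene. The genes compared were those with a scaled read count of at least 10 in at least 2 of these 4 libraries. They numbered 13761 of the 14515 genes listed in the deposited table, or 94.8%. Of these, 197 only just met this limit, with 10 as their second highest value, and the median over their values was 10. Among the 754 genes left out, 532 had 1 library at 10 or more and a median value of 7, and 222 had none.

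The mdx/Ripk3mKO genotype combines the mdx mutation of dystrophin with a change of Ripk3 that the labels write as mKO and do not spell out. The promoter or cell type that would drive such a change, the strain and the age are not stated in the sources at hand. The same table also holds 2 columns labelled mdx, without the Ripk3 change, whose values are given where they help place a gene. The sources describe the cells in different ways. The sample labels describe quiescent satellite cells isolated by flow cytometry and used without delay, 10000 to 20000 per library. In the series text they are activated cells of wild-type origin, taken from a lower culture well 72 hours after wt, mdx or mdx/Ripk3mKO cells were placed above them. In that account the genotype belongs to the cells above, and every sequenced cell is wild type. Group names therefore stand for the libraries as labelled. The sources do not say if the paired libraries of a genotype represent different animals or cultures, so a p-value reflects only how far these libraries spread, and that spread may be technical.

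Satellite cells are the resident stem cells of skeletal muscle. They lie under the basal lamina of the muscle fibre, carry the transcription factor Pax7, and on injury divide as myoblasts that express Myod1 before they exit the cell cycle with Myog and fuse. Dystrophin links the actin cytoskeleton of the fibre to the extracellular matrix, and its loss in mdx mice, a model of Duchenne muscular dystrophy, leaves fibres fragile. Ripk3 is the kinase of necroptosis, a lytic and inflammatory form of cell death: it is engaged by Ripk1 below the TNF receptor and phosphorylates Mlkl, which then permeabilises the plasma membrane. The title of the series concerns the suppression of necroptosis in muscle stem cells of dystrophic muscle.

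All 4 libraries held markers of myogenic cells. In CPM, the usual per-library rate, here taken over the scaled total of the library, Pax7 lay between 84.6 and 95.1, Myf5 between 108 and 121, Myod1 between 1021 and 1137, and Myog between 1438 and 1698. The proliferation marker Mki67 lay between 660 and 751 CPM and skeletal actin Acta1 between 3168 and 4058 CPM, so transcripts of cycling and of differentiating cells were measured in each library. None of the 9 neutrophil, 12 lymphocyte and 7 erythroid markers was listed in the table. Of 15 macrophage markers 4 were listed, with summed levels between 2.71 and 3.72 CPM, and of 11 endothelial markers 6 were listed, summing to between 3.86 and 5.06 CPM.

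The libraries differed in depth along with genotype. The scaled totals lay between 20682809 and 21037153. The divisors used in scaling, recovered from the spacing of the whole numbers, were 0.91 and 0.87 for the wt libraries and 1.205 and 1.206 for the mdx/Ripk3mKO libraries. More reads were thus counted in both mdx/Ripk3mKO libraries, and depth and genotype cannot be told apart. A count of 0 allowed up to 3.45 scaled counts in the shallowest library. By a mean chi-square per gene, the mdx/Ripk3mKO libraries were the less alike of the 2 pairs, at 8.97 against 3.70 between the wt libraries. This measure was taken on counts before scaling and grows with depth. The median size of the log2 difference between libraries was 0.11 in both pairs. The closest pair of the 4 was wt library 1 with mdx/Ripk3mKO library 2, at 2.77. Below, values are given as scaled counts in the order library 1, library 2, differences are on the scale of log2(scaled count + 1) as mdx/Ripk3mKO minus wt, and ± is the moderated standard error from limma.

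No gene passed an adjusted p of 0.05 between mdx/Ripk3mKO and wt in limma with Benjamini-Hochberg adjustment over 14077 tested genes, 0.00% of them. The smallest adjusted p was 0.0799. At an unadjusted p under 0.05 there were 468 tested genes, 3.32%, which is below the 5% that the threshold itself allows. Of these, 174 (1.24%) had the higher values in mdx/Ripk3mKO and 294 (2.09%) the lower values; among the compared genes the counts were 169 and 284. A second fit to the 4 libraries alone also called 0 genes, with 425 at an unadjusted p under 0.05. The median difference over all tested genes was 0.00, with 7111 genes above 0 and 6950 below. The median size of the difference between genotypes was 0.07, and that between single libraries was 0.11 in wt and 0.11 in mdx/Ripk3mKO. The first is a difference of means over 2 libraries, which averaging alone makes smaller than a difference of single libraries. Both mdx/Ripk3mKO libraries lay above both wt libraries for 2024 tested genes (14.4%) and below them for 2119 (15.1%), together 29.4% of tested genes, and in these 4 libraries a permutation test of a single gene cannot go below an exact two-sided p of 0.333.

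The gene targeted by the labels was measured at low level. Ripk3 (chr14:55784996-55788857, mm10) had 45 and 32 scaled counts in the wt libraries and 17 and 33 in the mdx/Ripk3mKO libraries. The groups overlapped, because mdx/Ripk3mKO library 2 was as high as wt library 2. The difference was -0.66 ± 0.34, with a 95% interval from -1.40 to 0.08 and an adjusted p of 1 in limma, and the mdx columns had 23 and 36. The value rested on single libraries: it was -0.20 without mdx/Ripk3mKO library 1, -1.11 without library 2 and -0.42 without wt library 1. Transcripts of Ripk3 were thus present in both mdx/Ripk3mKO libraries. Counts per gene do not show which exons the reads came from, so a deletion of part of the gene would not be visible in them.

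Dystrophin, the gene mutated in mdx, did not separate the groups either. Dmd had 324 and 432 scaled counts in wt and 474 and 294 in mdx/Ripk3mKO, with the highest and the lowest of the 4 values both in mdx/Ripk3mKO. The mdx columns lay above all 4 values, at 531 and 692. The difference was -0.00 ± 0.33 (95% interval -0.95 to 0.95), and it was positive when GC content and exon length were corrected for (0.04) and without mdx/Ripk3mKO library 2 (0.34). The mdx mutation is a point change in an exon, so a gene count would not report it directly. Over all 24 members of the dystrophin complex list, 11 were higher and 13 lower, and none passed the adjusted test.

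Of 24 listed genes for necroptosis and TNF receptor signalling 23 were compared, and they were evenly divided between higher and lower values. There were 11 above and 12 below 0, with a median of -0.03 beside 0.00 over all tested genes. For 6 of the 23 both mdx/Ripk3mKO libraries were above both wt libraries and for 6 both were below, beside 14.4% and 15.1% of all tested genes. Leaving out 1 library put the list median between -0.03 and 0.02. None had an unadjusted p under 0.05. Mlkl, the executioner of necroptosis, had 148 and 161 scaled counts in wt and 199 and 173 in mdx/Ripk3mKO. Its difference of 0.26 ± 0.14 had a 95% interval from -0.04 to 0.57, and the mdx columns, at 140 and 173, lay across both groups. Tradd, the adaptor that the TNF receptor recruits, had 130 and 108 against 97 and 93 (-0.32 ± 0.17). Birc2, a ubiquitin ligase acting on Ripk1, had 389 and 364 against 344 and 333 (-0.15 ± 0.09). Tnfrsf1a, the receptor itself, had 890 and 844 against 959 and 901 (0.10 ± 0.07). The mitochondrial phosphatase Pgam5 had 458 and 424 against 476 and 492 (0.13 ± 0.08). Each of these 5 genes kept the 4 libraries apart by genotype, and for each the interval of the difference included 0.

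The 40 compared genes with the smallest p were mostly lower in mdx/Ripk3mKO: 37 lay below wt and 3 above. By annotated type, 19 were protein-coding, 11 were TEC (an annotation class of transcripts that await experimental evidence), and 3 were long intergenic RNAs. The smallest p of all belonged to a TEC locus, AC160637.1, at chr9:59672814-59676700 on the plus strand. It lies inside the pyruvate kinase gene Pkm, on the same strand, and overlaps its exons. It had 2135 and 2188 scaled counts in wt and 1447 and 1655 in mdx/Ripk3mKO, a difference of -0.48 ± 0.07 (95% interval -0.63 to -0.33, adjusted p of 0.0799 in limma). The mdx columns had 1976 and 2132, so both mdx/Ripk3mKO libraries were below all 4 others. Pkm itself had 55596 and 55756 against 59419 and 55922, a difference of 0.05 ± 0.05 in the other direction. Reads in the shared exons cannot be assigned to one of these 2 loci.

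Other TEC loci inside introns showed the same contrast with their coding genes. Gm36936, at chr9:72728140-72730888 in Nedd4, a ubiquitin ligase, had 109 and 111 against 43 and 65 (-1.04 ± 0.20). Nedd4 was nearly level in the 4 libraries, at 47425 and 46538 against 46916 and 46559 (-0.01 ± 0.04). A930004J17Rik, at chr4:131878628-131883237 in Srsf4, a splicing factor of the SR family, had 224 and 265 against 125 and 168 (-0.75 ± 0.15), beside 323 and 316 against 276 and 313 for Srsf4 (-0.12 ± 0.11). Both loci lie on the strand of their coding gene and share no exon with it. Their adjusted p-values were 0.486 and 0.725 in limma, so neither passed the test over all genes.

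Counted by annotated type, 4 classes of non-coding RNA (TEC, sense-intronic, antisense and long intergenic) had negative medians and protein-coding genes a median of 0.00. Processed transcripts, with 100 of 159 lower, and transcribed unprocessed pseudogenes, with 14 of 20 lower, also had negative medians (-0.08 each). Other small classes varied: transcribed processed pseudogenes had a median of 0.11 with 21 of 33 higher, and unprocessed pseudogenes had 12 of 22 higher. Bidirectional promoter RNAs had 16 of 29 lower with overlapping groups. Of 300 listed TEC loci 222 were compared, and 166 had the lower values in mdx/Ripk3mKO, with a median difference of -0.26. For 84 of them both mdx/Ripk3mKO libraries lay below both wt libraries and for 13 both lay above, beside 15.1% and 14.4% of all tested genes. Sense-intronic RNAs, transcripts annotated within introns of another gene, had a median of -0.32, with 25 of 31 lower. Antisense RNAs had a median of -0.19, with 164 of 249 lower, and long intergenic RNAs -0.10, with 195 of 312 lower. The 12229 protein-coding genes had a median of 0.00, with 6417 higher and 5803 lower. Without mdx/Ripk3mKO library 1 the TEC median was -0.16 with 143 lower, the sense-intronic median -0.17 with 23 lower, and the antisense median -0.13 with 154 lower. Leaving out the other mdx/Ripk3mKO library gave -0.35, -0.41 and -0.20. The antisense median was -0.12 without wt library 2.

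**Figure D1:**
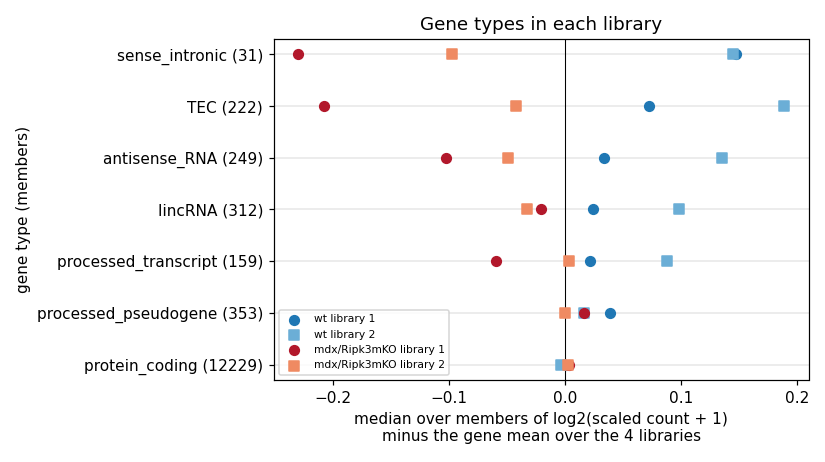
Median level of each annotated gene type in the 4 libraries. The horizontal axis is the median over members of log2(scaled count + 1) minus each gene's mean over the 4 libraries, and the number of members is given beside each type. Sense-intronic, TEC, antisense and long intergenic RNAs have both wt libraries to the right of both mdx/Ripk3mKO libraries, and protein-coding genes have all 4 near 0.

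The wt libraries also differed from each other in this measure. The TEC median lay 0.07 above the mean of the 4 libraries in wt library 1 and 0.19 above it in wt library 2, and 0.21 and 0.04 below it in the mdx/Ripk3mKO libraries. The filter did not act evenly on the groups: 12 TEC loci were compared only because both wt libraries reached 10 and 4 only because both mdx/Ripk3mKO libraries did. For antisense RNAs these numbers were 10 and 3. Among TEC loci with at least 5 CPM, a limit chosen after the values were seen, all 14 had negative differences, with a median of -0.24, although 1 turned positive under quantile normalization and 3 of 13 were positive in the fit corrected for GC content and length. With 1 library left out, 1 to 3 of the 14 were positive and the median lay between -0.33 and -0.16. The deeper sequencing of the mdx/Ripk3mKO libraries went with these differences, and its part in them was not tested.

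Setting each non-coding locus beside the coding gene it overlaps gave the same picture at 158 TEC loci. In GENCODE release M21, 101 of them lay on the strand of the coding gene, 57 on the other strand, and 102 overlapped none of its exons. For a locus that overlapped several coding genes, only the gene with the longest overlap was taken, whatever its strand. These counts therefore hold for the gene taken, and a further coding gene may overlap the locus on either strand. The TEC loci had a median difference of -0.31 and their coding genes a median of 0.00. In 124 of 158 pairs the TEC locus had the more negative difference. For 28 sense-intronic RNAs the medians were -0.31 and 0.01, with 22 below the coding gene, and for 210 antisense RNAs they were -0.21 and 0.01, with 144 below. The median of TEC locus minus coding gene was -0.31, and it lay at -0.18 without mdx/Ripk3mKO library 1 and at -0.45 without mdx/Ripk3mKO library 2.

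Single pairs illustrate this contrast; they were chosen after their values were seen and do not measure its usual size. The sense-intronic RNA 4632404M16Rik, in the calsequestrin gene Casq2, had 134 and 123 scaled counts in wt and 104 and 98 in mdx/Ripk3mKO (-0.34), while Casq2 differed by 0.03. Gm29170, within Uchl5, had 111 and 128 against 76 and 93 (-0.50), beside -0.04 for Uchl5. Gm44667 lies within Mef2a on the same strand and was paired with Lysmd4 on the opposite strand. It had 119 and 133 against 64 and 100 (-0.65), beside -0.07 for Mef2a and -0.01 for Lysmd4. In these 3 pairs the groups did not overlap for the non-coding RNA, beside 29.4% of all tested genes without overlap. The imprinted intronic RNA Peg13, in Trappc9, had 200 and 196 against 187 and 182, a difference of only -0.10. The stranded library kit allows strands to be told apart, but no source used here states if reads were counted by strand. A locus and a gene on opposite strands may therefore share reads.

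**Figure D2:**
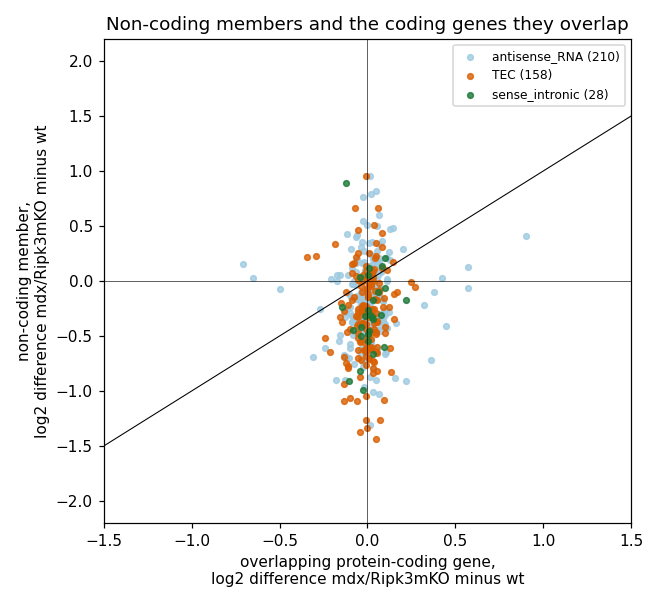
Difference between mdx/Ripk3mKO and wt (log2 scale) of each TEC, sense-intronic and antisense RNA on the vertical axis and of the coding gene it overlaps on the horizontal axis. Each point is a pair and the diagonal marks equal differences. The non-coding members spread mainly below 0 (medians -0.31, -0.31 and -0.21) while their coding genes lie around 0.

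One of the 3 higher genes among the 40 with the smallest p encodes a linker histone. Linker histone H1 proteins bind the DNA that enters and leaves the nucleosome, and the clustered H1 genes are transcribed mainly in S phase. Hist1h1d (RefSeq symbol H1f3, chr13:23553262-23560686 in the deposited table) had 1 and 2 scaled counts in the wt libraries and 14 and 17 in the mdx/Ripk3mKO libraries. The mdx columns had 14 and 9, so the wt libraries were the low pair among the 6. Counts before scaling, worked back from the scaled counts and the recovered divisors, were 38 in mdx/Ripk3mKO and 3 in wt. With each count divided by the divisors of its libraries, the ratio was 9.35 (95% interval 2.97 to 47.4, counting error only). The adjusted p was 0.486 in limma. The gene entered the comparison only through the mdx/Ripk3mKO libraries, so a difference was built into its selection. Its coding sequence resembles those of its paralogs, which can share reads.

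The other linker histone of the cluster that was compared, Hist1h1c (RefSeq symbol H1f2), had 231 and 245 scaled counts in wt and 274 and 259 in mdx/Ripk3mKO (0.16 ± 0.13, adjusted p of 1 in limma). Outside the clusters, H1f0 had 1490 and 1426 against 1583 and 1540. The groups did not overlap for any of these 3 linker histones, beside 29.4% of all tested genes without overlap. For Hist1h1d this was built in by the filter, and H1f0 was chosen after its values were seen. The replication histone list held 30 symbols, of which 5 were compared, 3 with higher and 2 with lower values. In GENCODE release M21 the exons of Hist1h1d cover 7425 bases, the whole of its listed span, and the promoter window below lies inside that span. The counts of Hist1h1d therefore need not come from the transcript that starts after this window. The promoters of both clustered genes are shown. These loci are near relatives counted at unlike levels, with Hist1h1d near the detection limit in wt. No size of contrast is drawn from the fitted value of Hist1h1d, which depends on the pseudocount. Each line gives the 250 bases before the RefSeq start on GRCm38.p6, read 5′ to 3′ on the gene's strand, chr13:23554782-23555031 for Hist1h1d and chr13:23738557-23738806 for Hist1h1c. Capitals mark AAACACA (the H1 box) and CCAAT.
Hist1h1d: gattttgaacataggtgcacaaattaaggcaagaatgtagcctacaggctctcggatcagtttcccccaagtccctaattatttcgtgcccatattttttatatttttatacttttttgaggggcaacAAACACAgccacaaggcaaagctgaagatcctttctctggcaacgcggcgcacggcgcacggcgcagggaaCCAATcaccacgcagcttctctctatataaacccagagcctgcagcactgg
Hist1h1c: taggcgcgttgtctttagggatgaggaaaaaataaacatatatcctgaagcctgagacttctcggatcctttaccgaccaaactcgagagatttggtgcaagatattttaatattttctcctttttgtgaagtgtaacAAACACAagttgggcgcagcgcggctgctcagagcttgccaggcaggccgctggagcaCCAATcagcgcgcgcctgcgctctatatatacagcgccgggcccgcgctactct

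Both promoters held both motifs in similar positions: the H1 box began 122 bases before the start in Hist1h1d and 112 in Hist1h1c, and the CCAAT match 51 and 54 bases before it. Over the same length, 6.246% of 32851 RefSeq promoters held the H1 box and 33.85% held CCAAT, searched on both strands. The matches describe the letters of these windows only.

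Named genes were taken by a rule that required at least 5 CPM, groups that did not overlap and an established symbol, and then the 12 smallest p-values in each direction. None of the 24 passed the adjusted threshold. Zkscan3, a zinc finger repressor of autophagy genes, had 1269 and 1264 scaled counts in wt and 1002 and 1043 in mdx/Ripk3mKO, with 1305 and 1264 in the mdx columns. The difference was -0.31 ± 0.06 (95% interval -0.44 to -0.18, adjusted p of 0.508 in limma), and both mdx/Ripk3mKO libraries were below all 4 others. Zfp715 had 491 and 491 against 363 and 409 (-0.35 ± 0.09). The imprinted zinc finger gene Zim1 had 1688 and 1588 against 1331 and 1414 (-0.25 ± 0.06). Zbtb20, a transcriptional repressor, had 6666 and 7020 against 5646 and 6289 (-0.20 ± 0.06), below mdx columns of 8017 and 7848. Mtf2, a subunit of Polycomb repressive complex PRC2, had 957 and 989 against 776 and 857 (-0.25 ± 0.07). The 400 compared genes with a zinc finger symbol were grouped after the values were seen. Of these, 243 (60.75%) were lower, with a median of -0.04. For 105 (26.25%) both mdx/Ripk3mKO libraries were below both wt libraries, beside 15.1% of all tested genes. In the fifth of protein-coding genes with the lowest GC content, 63.3% were lower and 20.0% lay below wt without overlap. In the fifth with the longest exons these shares were 64.0% and 22.4%. The part of GC content and length in the zinc finger values was not tested.

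Uvssa, a factor of transcription-coupled DNA repair, had 576 and 525 against 442 and 415 (-0.36 ± 0.08). Mdm4, an inhibitor of p53, had 2351 and 2461 against 1971 and 2147 (-0.23 ± 0.06). Ccnt2, a cyclin of the elongation kinase P-TEFb, had 1380 and 1533 against 1190 and 1272 (-0.24 ± 0.07). Each of these differences was larger than the gap between the libraries of either group, and none passed the adjusted test (adjusted p of 1 in limma for all 3). Cgnl1, a junction protein, had 1126 and 1131 against 934 and 959 (-0.25 ± 0.06), and the mdx columns lay above both groups at 1306 and 1294. Prr33, annotated as a long intergenic RNA in the table, had the largest difference of the 12, with 391 and 391 against 261 and 295 (-0.49 ± 0.11, adjusted p of 0.902 in limma). Zc3h7a and Zfp280c differed by -0.23 each.

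**Figure D3:**
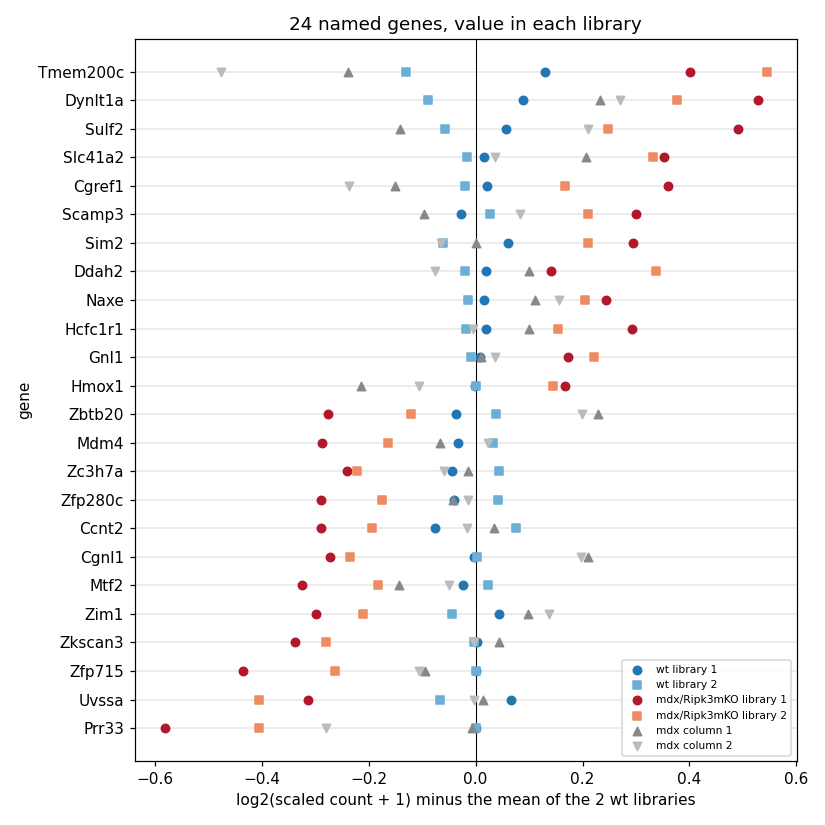
The 24 named genes in all 6 libraries. The horizontal axis is log2(scaled count + 1) minus the mean of the 2 wt libraries, and each point is 1 library. The mdx/Ripk3mKO libraries lie right of the wt libraries for the upper 12 genes and left of them for the lower 12, as the naming rule required, from -0.49 for Prr33 to 0.47 for Tmem200c.

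Among the 12 higher genes the differences lay between 0.16 and 0.47, close in size to those of the lower 12 (-0.49 to -0.20). Their p-values in limma were mostly larger: the smallest was 0.0033 for Tmem200c, and the lower genes reached up to 0.0037 for Zbtb20. Tmem200c, a membrane protein, had 212 and 177 scaled counts in wt and 256 and 283 in mdx/Ripk3mKO (0.47 ± 0.13), with lower values of 164 and 139 in the mdx columns. Sulf2, an extracellular sulfatase that edits heparan sulfate, had 381 and 352 against 515 and 435 (0.37 ± 0.12). Slc41a2, a magnesium transporter, had 220 and 215 against 278 and 274 (0.34 ± 0.11). Hmox1, heme oxygenase, had 4556 and 4565 against 5120 and 5041 (0.16 ± 0.05), and 3931 and 4240 in the mdx columns. For Tmem200c, Hmox1 and Cgref1 the order of the groups was mdx, wt, mdx/Ripk3mKO with no overlap. Dynlt1a, a dynein light chain with near-identical copies that can share reads, had 103 and 91 against 140 and 126 (0.45 ± 0.15). Ddah2, Cgref1, Scamp3, Sim2, Hcfc1r1, Naxe and Gnl1 differed by between 0.20 and 0.26. All 12 had an adjusted p of 1 in limma.

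Cytosolic ribosomal protein genes had small differences in the same direction. All 44 compared members were above 0 as deposited, 38 under quantile normalization and 41 when scaled to the library total, and the median was 0.05. For 19 of the 44 both mdx/Ripk3mKO libraries lay above both wt libraries, and for none below, beside 14.4% and 15.1% of all tested genes. Rpsa, a protein of the small subunit, had 15230 and 14682 against 15761 and 17045 (0.13 ± 0.05), and Rps2 had 27435 and 25880 against 27996 and 29037 (0.10 ± 0.05). Without mdx/Ripk3mKO library 1, 43 members were higher with a median of 0.08, and without library 2, 34 were higher with a median of 0.03. None passed the adjusted test, and ribosomal protein genes have processed pseudogenes that can take up reads.

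Nuclear genes of oxidative phosphorylation showed a median of 0.06, with 41 of 48 higher and 16 non-overlapping upward, beside 14.4% of all tested genes. Ndufb10, a subunit of complex I, had the smallest p of the list, with 2106 and 2030 against 2343 and 2250 (0.15 ± 0.06). The median was 0.02 without mdx/Ripk3mKO library 1, with 30 higher. Of 9 genes of the mitochondrial genome 8 were higher with a median of 0.07, yet none kept the groups apart. Their median was -0.02 without mdx/Ripk3mKO library 1, 0.01 without wt library 1 and 0.00 under quantile normalization.

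Targets of Nrf2, the regulator of the antioxidant response, had 17 of 20 members higher and a median of 0.06. Besides Hmox1, ferritin heavy chain Fth1 had 22828 and 22461 against 25308 and 23506 (0.11 ± 0.05). The glutathione transferase Gsta4 had 189 and 218 against 278 and 221 (0.29 ± 0.14). Hmox1 and Fth1 had an unadjusted p under 0.05 in limma. For 8 of the 20, these and Gsta4 among them, both mdx/Ripk3mKO libraries lay above both wt libraries. For 1 both lay below, beside 14.4% and 15.1% of all tested genes. Lysosomal and autophagy genes had 17 of 25 higher and a median of 0.05, led by the cathepsins Ctsb, with 5162 and 4816 against 5862 and 5290 (0.16 ± 0.06), and Ctsd, with 4648 and 4416 against 5290 and 4746 (0.15 ± 0.06). Without mdx/Ripk3mKO library 1 the lysosomal median was 0.01, and without library 2 it was 0.10.

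Genes of the p53 pathway had 14 of 19 higher with a median of 0.06, which was 0.03 with 11 higher without mdx/Ripk3mKO library 1, 0.13 without library 2 and 0.10 without wt library 2. The inhibitor Mdm4, described above, was lower, and the targets Sesn2, with 527 and 508 against 601 and 584 (0.19 ± 0.08), and Gdf15, with 142 and 128 against 154 and 168 (0.25 ± 0.14), had higher values. Cdk4, a kinase of the G1 phase, had 8789 and 8221 against 9651 and 9008 (0.13 ± 0.05). Cdkn1c, an imprinted inhibitor of such kinases, had 300 and 272 against 230 and 236 (-0.29 ± 0.10), while both mdx columns were far higher at 486 and 488. None of these genes passed the adjusted test.

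Sterol and fatty acid synthesis was the list most often lower. Of 27 members 24 were below 0, with a median of -0.08, and for 8 both mdx/Ripk3mKO libraries were below both wt libraries, beside 15.1% of all tested genes. Hmgcs1, which makes HMG-CoA for sterol synthesis, had 4451 and 4156 against 3624 and 3989 (-0.18 ± 0.07). Scd2, a fatty acid desaturase, had 21597 and 18787 against 18088 and 18763 (-0.13 ± 0.06), with wt library 2 close to mdx/Ripk3mKO library 2. The list median was highest in wt library 1 and lowest in mdx/Ripk3mKO library 1, and it was -0.01 without the former and -0.02 without the latter. Without the other library of wt or of mdx/Ripk3mKO it was -0.13 in either case.

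Notch signalling, which keeps satellite cells quiescent, had 9 of 21 members higher. Its effector Heyl had 1186 and 1112 against 1035 and 848 (-0.29 ± 0.09), and 1502 and 1697 in the mdx columns, so the mdx/Ripk3mKO libraries lay at the opposite end from mdx. Pax7 had 1817 and 1967 against 1805 and 1755 (-0.09 ± 0.07). Among extracellular matrix genes 23 of 35 were lower with a median of -0.05, but without wt library 2 the median was 0.00 with 18 higher, and without mdx/Ripk3mKO library 2 it was 0.03 with 21 higher. Adamts2, a procollagen protease, had 126 and 128 against 105 and 78 (-0.48 ± 0.16), again below mdx columns of 167 and 176. The growth factor Tgfb2 had 1206 and 1100 against 983 and 1015 (-0.21 ± 0.08), and the Wnt receptor Fzd4 had 526 and 517 against 466 and 463 (-0.17 ± 0.08). Each of these had an adjusted p of 1 in limma.

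**Figure D4:**
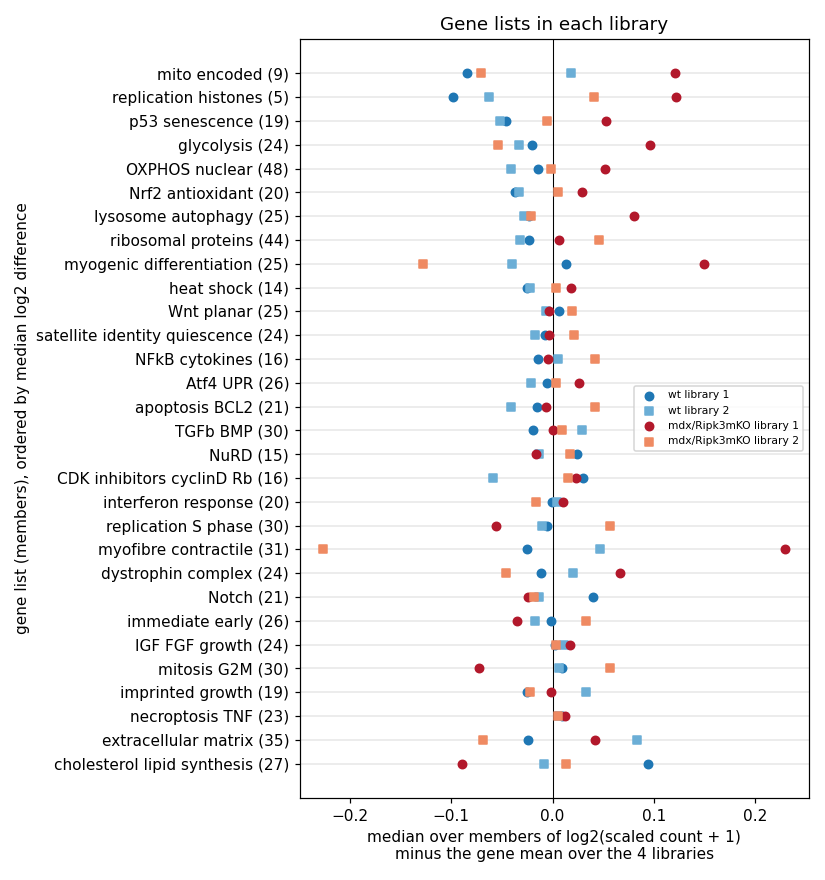
Median level of 30 gene lists in the 4 libraries. The horizontal axis is the median over members of log2(scaled count + 1) minus each gene's mean over the 4 libraries; lists are ordered by their median difference between genotypes. The 2 mdx/Ripk3mKO libraries lie at opposite ends for myofibre genes (0.23 and -0.23) and on the same side of both wt libraries for ribosomal proteins.

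Genes of the contractile apparatus and of myogenic differentiation differed more between the 2 mdx/Ripk3mKO libraries than between the genotypes. The median of the 31 myofibre genes was 0.01, but it stood at 0.23 in mdx/Ripk3mKO library 1 and at -0.23 in library 2, with the wt libraries at -0.03 and 0.05. Left alone against wt, library 1 gave 28 of 31 higher and library 2 gave 27 of 31 lower. Casq1, the calcium store protein of fast fibres, had 448 and 558 in wt and 724 and 349 in mdx/Ripk3mKO. Myh1, a fast myosin heavy chain, had 15341 and 18297 in wt and 20849 and 11767 in mdx/Ripk3mKO. The mdx columns were above all 4 for both genes, at 932 and 1271 for Casq1 and 25820 and 27921 for Myh1. The differentiation list behaved alike, with library medians of 0.15 and -0.13 in mdx/Ripk3mKO. An exception was Eno3, the muscle enolase, with 13418 and 12740 against 14689 and 13753 (0.12 ± 0.05). Glycolysis as a whole had 19 of 24 members higher with a median of 0.06, which stood at -0.02 when mdx/Ripk3mKO library 1 was left out and stood at 0.12 when library 2 was.

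mdx/Ripk3mKO library 1 also stood apart in sex-linked transcripts. Xist, which is expressed from the inactive X chromosome of females, had 6918 scaled counts there, 471 in mdx/Ripk3mKO library 2 and 420 and 164 in the wt libraries. The Y-linked gene Ddx3y had 373 there and between 1543 and 1785 in the 5 other libraries. Eif2s3y, Kdm5d and Uty, also on the Y chromosome, stood at 25.2%, 24.1% and 23.8% of their mean in the other 5, and Ddx3y at 22.5%. The collagen gene Col1a1 had 286 in that library, against 21 in mdx/Ripk3mKO library 2 and 40 and 41 in wt, and its values in the mdx columns were 87 and 96. Of 12 fibroblast markers 5 were listed, none at 0; they summed to 260 CPM in that library and to between 206 and 213 CPM in the other 3. Gsn had 4953 scaled counts there against 3689 to 3829 in the other 3, Cd248 had 17 against 7 to 11, Fbln1 438 against 480 to 517 and Ly6a 33 against 23 to 38, while Pdgfra lay between 1.16 and 1.55 CPM in all 4. Their part in the Col1a1 value was not tested. A fit without mdx/Ripk3mKO library 2, in which library 1 stood alone and was assumed to vary like the libraries of the wt and mdx groups, called 20 genes, 11 higher and 9 lower, among them these 4 Y-linked genes, Col1a1, the muscle genes Ckm, Myl1, Casq2 and Xirp2, and the 3 TEC loci named above. The proteoglycan gene Bgn was also called, with 2079 and 1875 against 1328 and, in the library left out, 1865. With the 2 wt libraries against library 2 alone, 0 genes were called and 486 had an unadjusted p under 0.05.

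**Figure D5:**
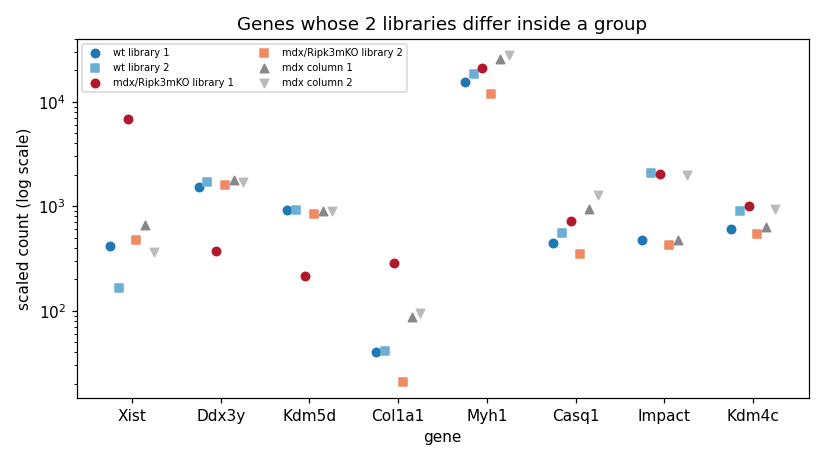
Scaled counts (log axis) of 8 genes in each of the 6 libraries. mdx/Ripk3mKO library 1 has the highest Xist (6918) and Col1a1 (286) and the lowest Ddx3y (373) and Kdm5d (216), while Impact and Kdm4c have 1 high and 1 low library in every genotype.

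A few genes had 1 high and 1 low library in each genotype. Impact, an imprinted gene, had 480 and 2081 in wt, 2023 and 422 in mdx/Ripk3mKO and 471 and 1980 in the mdx columns. The histone demethylase gene Kdm4c followed with 611 and 903, 1002 and 544, and 632 and 935. Wdfy1 had 333 and 499, 488 and 323, and 356 and 490. For all 3 the genotype difference was near 0 (-0.11 ± 1.48 for Impact, -0.01 ± 0.47 for Kdm4c and -0.04 ± 0.36 for Wdfy1), and the spread within each group exceeded it.

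Across protein-coding genes the difference went with base composition and length. In the fifth of genes with the lowest GC content 1548 of 2445 were lower in mdx/Ripk3mKO, with a median of -0.02, and in the fifth with the highest 1607 of 2445 were higher, with a median of 0.04. These medians were 0.00 and -0.00 without wt library 2, and the wt libraries themselves differed by GC content: Spearman's rho across 12224 genes was -0.29 for wt library 2 minus wt library 1 and 0.22 for mdx/Ripk3mKO minus wt. In the fifth with the shortest exons 1614 of 2446 were higher, with a median of 0.04, and in the fifth with the longest 1563 of 2444 were lower, with a median of -0.03 (rho of -0.23). Genes are not independent replicates, and these values share the 4 libraries, so they describe the data only. Ribosomal protein genes are short, and their part in this trend was not tested. In the fit corrected for both properties 43 of the 44 were higher, with a median of 0.07.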

How the data were processed

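RNA of 6 libraries was sequenced, 2 for each of the labels wt, mdx and mdx/Ripk3mKO. They were made with the Takara SMARTer stranded pico kit, version 2, per the labels' protocols. Per the submitters' processing notes the authors used Trimmomatic 0.36, STAR 2.6.1d, featureCounts 1.6.3 and DESeq2 1.18.1 with mm10; the role of each and the settings are not given in the sources used here. The authors deposited whole numbers per gene that the values show to be read counts scaled between libraries and rounded, so they were treated as a score, here called scaled counts, and not as raw counts; a count test was therefore not used. The 2 mdx columns carry the same header; their numbers are names only.

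Genes with at least 10 in at least 2 of the 6 libraries (14077) were tested with limma 3.58.1 in R 4.3.3 on log2(scaled count + 1), in 1 fit with genotype as the only term, 3 residual degrees of freedom, and a variance trend with robust fitting (statmod 1.5.0). Benjamini-Hochberg adjustment ran over all of them, with a threshold of 0.05. The log2 scale understates the change of low genes. The fit was tested on simulated data. Locations are those of the deposited table; overlaps with coding genes and GC content came from GENCODE M21, which shares 14502 of the 14515 identifiers, 10099 with the same coordinates. Promoters are from RefSeq on GRCm38.p6. Lists were described by counts and medians without a test.

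The named genes are Ripk3 and Dmd; the 12 genes per direction with the smallest p, at least 5 CPM, groups apart and an established symbol; up to 3 genes per list with the smallest p; and up to 6 per direction from the fit of 4 libraries. Not all are described. Outside this rule, the TEC, sense-intronic and antisense loci, H1f0, Tnfrsf1a, Birc2, Pgam5, Casq1, Myh1, Scd2, Col1a1, Impact, Kdm4c, Wdfy1 and the sex-linked genes were chosen after their values were seen. The members and lists were chosen with earlier results of these data known. The alternatives tried were other pseudocounts, filters, scalings and fits, a correction for GC content and exon length, a replicate block, and leaving out each library. Some items are not reported here.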

Additional observations from a re-analysis of the deposited data

How the results depend on the processing

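Under 13 of 14 alternatives 0 genes were called. Leaving out libraries in turn gave 0 to 20 called genes, the 20 without mdx/Ripk3mKO replicate 2. The replicate numbers shared by the groups do not pair them by any statement in the labels: the difference of library 2 minus library 1 in wt correlated with that in mdx/Ripk3mKO at r = -0.01 across genes, and with the numbers as a replicate block 0 genes were called, with 362 at an unadjusted p under 0.05. With 2 libraries per genotype, only large and even differences could be called. A count of 0 allowed up to 3.45 scaled counts in wt library 2 and up to 2.49 in each mdx/Ripk3mKO library.

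The sign of single genes turned as follows. In the fit corrected for GC content and length, Dmd stood at 0.037, Kdm4c at 0.033 and Nedd4 at 0.017, and Casq1 stood at -0.0039 when scaled to the library total. Leaving out a library gave -0.35 to 0.34 for Dmd, -0.021 to 0.0062 for Nedd4, -1.24 to 1.02 for Impact, -0.45 to 0.43 for Kdm4c, -0.33 to 0.26 for Wdfy1, -0.92 to 2.79 for Col1a1, -0.52 to 0.53 for Casq1 and -0.51 to 0.32 for Myh1. No other gene of the 78 followed turned its sign.

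For 54 medians of lists, types and bins, 114 values under the alternatives moved by more than the spread between libraries and 640 did not. Only some of these medians are given here. The necroptosis median was -0.013 with a minimum of 50, -0.021 under quantile normalization, -0.041 when scaled to the total and 0.0041 with the GC and length correction, and -0.025 to 0.019 when a library was left out. That correction gave 0.079 for Nrf2 targets, which stood at 0.044 when scaled to the total, and 0.067 for ribosomal proteins. The antisense median was -0.12 with a minimum of 50. Leaving out a library gave 0.032 to 0.076 for ribosomal proteins, 0.024 to 0.083 for oxidative phosphorylation, -0.023 to 0.12 for glycolysis, 0.032 to 0.13 for p53 genes, 0.0050 to 0.10 for lysosomal genes, -0.11 to 0.028 for extracellular matrix, -0.11 to 0.18 for myogenic differentiation, -0.23 to 0.23 for myofibre genes, -0.41 to -0.17 for sense-intronic RNAs and -0.23 to -0.12 for antisense RNAs. The cause was not tested.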

Other observations

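Genes with at least a 2-fold difference and no overlap between the groups were few and mostly weakly expressed. There were 64, of which 45 were lower and 19 higher in mdx/Ripk3mKO, and 29.4% of all tested genes kept the groups apart at any size. Of the 64, only 4 had a mean of at least 50 scaled counts: Uty, Kdm5d, Xist and the TEC locus Gm36936. Protein-coding genes made up 17 of the lower and 12 of the higher ones. The filter had a part in these numbers: 29 of the 45 reached 10 only in wt libraries and 13 of the 19 only in mdx/Ripk3mKO libraries, so a difference was built into their selection. With at least 10 in all 4 libraries there were 6 lower and 2 higher. Of these, the sex-linked Uty, Kdm5d and Xist were set apart mainly by mdx/Ripk3mKO library 1, as was Gm29650 (62 and 62 against 15 and 54). Rn7sk, at 10 and 11 against 12 and 55, was set apart mainly by mdx/Ripk3mKO library 2. The others were Etohd2, Gm37303 and Gm36936, all lower.

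Small nucleolar RNAs, which guide the modification of ribosomal RNA and are mostly cut from introns, had lower values in mdx/Ripk3mKO for 41 of 63. Their library medians overlapped, at -0.03 and 0.27 in wt and -0.19 and 0.02 in mdx/Ripk3mKO, with wt library 2 the highest. Mitotic genes were lower for 20 of 30, with the list median at -0.07 in mdx/Ripk3mKO library 1 and 0.06 in library 2, opposite in sign to the myofibre genes in each of these libraries. Both groups of genes were picked out after their values were seen.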
